A study of Mus musculus with 8 samples.

Results

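The nuclear receptor family is described here through 33 genes, chosen by symbol from the 34465 genes measured by RNA-seq in whole mouse liver. All 33 were in the gene table, and the 31 that averaged 1 or more across all libraries were tested. Another 16 receptor genes of the family are given as a list of their own further on. The 8 libraries fall into 4 groups of 2: Cre-positive hepatectomy, Cre-negative hepatectomy, Cre-positive sham and Cre-negative sham livers. All mice were of the strain 129S4/SvJae/FVB, 3 months old, and carried floxed b-PDGFR alleles (b-PDGFR fl/fl), the gene for the beta receptor of platelet-derived growth factor. Cre-positive mice (GFAP Cre +/-) also carried a Cre recombinase driven by the GFAP promoter, used to delete the receptor in hepatic stellate cells, the retinoid-storing pericytes of the liver. Cre-negative mice (GFAP Cre -/-) had the floxed alleles and no Cre. Hepatectomy livers were taken 72 h after partial hepatectomy, when the remnant is regrowing, and sham livers after the operation without resection. The labels call the libraries duplicates without saying that they are separate animals, so p-values measure only the spread between these samples, which may be technical.

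Nuclear receptors are transcription factors that bind DNA through zinc fingers, and many are switched by small lipophilic ligands such as steroids, thyroid hormone, retinoic acid, oxysterols and fatty acids. Many of them bind as heterodimers with a retinoid X receptor, so the RXR genes sit at the centre of the family. In liver they set drug metabolism, bile acid and cholesterol handling, fat oxidation and the response to glucocorticoids, and several have been studied in liver regeneration.

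Pdgfrb, the floxed gene, was at 63.1 and 99.9 in Cre-positive and 123 and 70.5 in Cre-negative hepatectomy livers, against 59.4 and 45.97 in Cre-positive and 49.8 and 63.3 in Cre-negative sham livers. The genotypes overlapped in both operations, in whole livers where cells other than stellate cells also express it, so the genotype is taken from the labels alone. In whole liver, fewer cells of a type and less RNA per cell cannot be told apart. Values are a normalized signal whose unit the sources used here do not name. Library sums lay between 8617664 and 11583777, and the read depth behind them is unknown. Replicates of a group differed by a median factor of 1.67 in Cre-positive hepatectomy livers, 1.38 in Cre-negative hepatectomy livers, 1.16 in Cre-positive sham livers and 1.17 in Cre-negative sham livers.

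None of the 31 tested members passed the threshold in any of the 7 comparisons. The test was limma on log2(signal + 1), two-sided, with Benjamini-Hochberg adjustment over all 16443 genes tested and a threshold of 0.05. For hepatectomy against sham in Cre-positive livers, 0 of 31 members passed (0 at an unadjusted p under 0.05), while 0.943% of all genes tested passed and 13.5% had an unadjusted p under 0.05. In Cre-negative livers 0 of 31 passed (2 at an unadjusted p under 0.05), against a background of 1.11% and 21.3%. Averaged over both genotypes 0 passed (4 at an unadjusted p under 0.05), against 4.49% and 23.8%. Fold changes in log2 had a median of 0.018 over the 31 members in the averaged comparison and 0.12 over all genes tested, and 16 of the 31 were positive, against 57.7% of all genes. This even split depended on the scaling. With median-of-ratios scaling the members' median was -0.14 with 11 positive, with quantile normalization -0.12 with 12 positive, and after a correction for GC content, described below, -0.22 with 7 positive, while the medians of all genes were -0.029, -0.030 and -0.0086. The 9 members whose sign turned negative with the GC correction were Thra, Rara, Rarg, Rxrb, Nr1i2, Nr1h2, Nr1h3, Nr2f6 and Esrra. Intervals were wide, as the plot of fold changes shows: the median SE of a member was 0.30 on the log2 scale in the averaged comparison and 0.43 within a genotype. A missed threshold therefore does not show that a receptor kept its level.

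**Figure D1:**
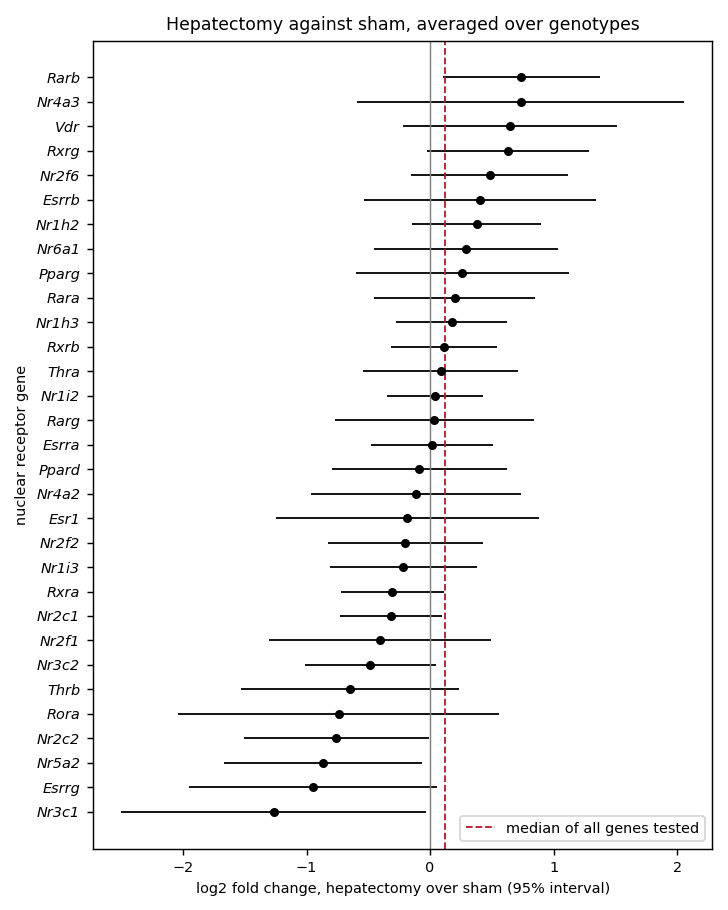
Log2 fold change of hepatectomy over sham, averaged over genotypes, for the 31 members tested (points, with 95% intervals from limma), ordered by fold change. The dashed line marks the median of all genes tested, 0.12. Estimates run from -1.27 for Nr3c1 to 0.74 for Rarb.

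These counts depend on 1 library. Without Cre-positive hepatectomy replicate 1, 9 members passed in the averaged comparison: Nr1h2, Nr2f6 and Rxrg were higher, and Nr2c2, Nr3c1, Nr3c2, Nr5a2, Rora and Thrb lower. In that setting 32.7% of all genes tested passed, so 9 of 31 lies near the background. The Cre-positive group is then its replicate 2 alone, assumed to vary like the other groups. That replicate, unlike the other hepatectomy libraries, was low for AT-rich transcripts.

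Cre-positive hepatectomy replicate 2 was low for AT-rich and high for GC-rich transcripts. Its median gene differed from the sham mean, in log2, by -1.48 under 40% GC, -0.83 from 40 to 45%, 0.47 from 50 to 55% and 0.66 at 55% or more. In Cre-positive hepatectomy replicate 1 the same medians were -0.060, 0, -0.078 and -0.11. They were -0.028, 0.016, 0.32 and 0.61 in Cre-negative hepatectomy replicate 1, and -0.042, -0.012, 0.20 and 0.40 in Cre-negative replicate 2. The rise of GC-rich genes was thus shared with the Cre-negative hepatectomy libraries, and the loss of AT-rich genes was not. Among members, Rora at 40.9% GC was at a log2 difference of -2.69 in Cre-positive replicate 2 and 0.16 in Cre-positive replicate 1. Nr3c1 at 42.2% GC was at -2.90 and -0.23, and Thrb at 44.1% GC at -1.95 and -0.12. At the other end Nr2f6, at 67.3% GC, was at 1.18 in replicate 2 and 0.13 in replicate 1. Across the 31 members the Spearman correlation of GC content with the difference from sham was 0.735 in replicate 2 and -0.0681 in replicate 1. In Cre-negative hepatectomy replicates 1 and 2 it was 0.396 and 0.427. Points here are genes that share 1 library, and the values are a description. Over all 15858 genes with a GC content the correlation was 0.557 in Cre-positive hepatectomy replicate 2 and -0.077 in Cre-positive replicate 1. It was 0.204 and 0.208 in Cre-negative hepatectomy replicates 1 and 2. Values after a GC correction, a loess curve per library, are given for part of the members. Nr2f1 and Esrrb, which the correction also moved, are not among them.

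**Figure D2:**
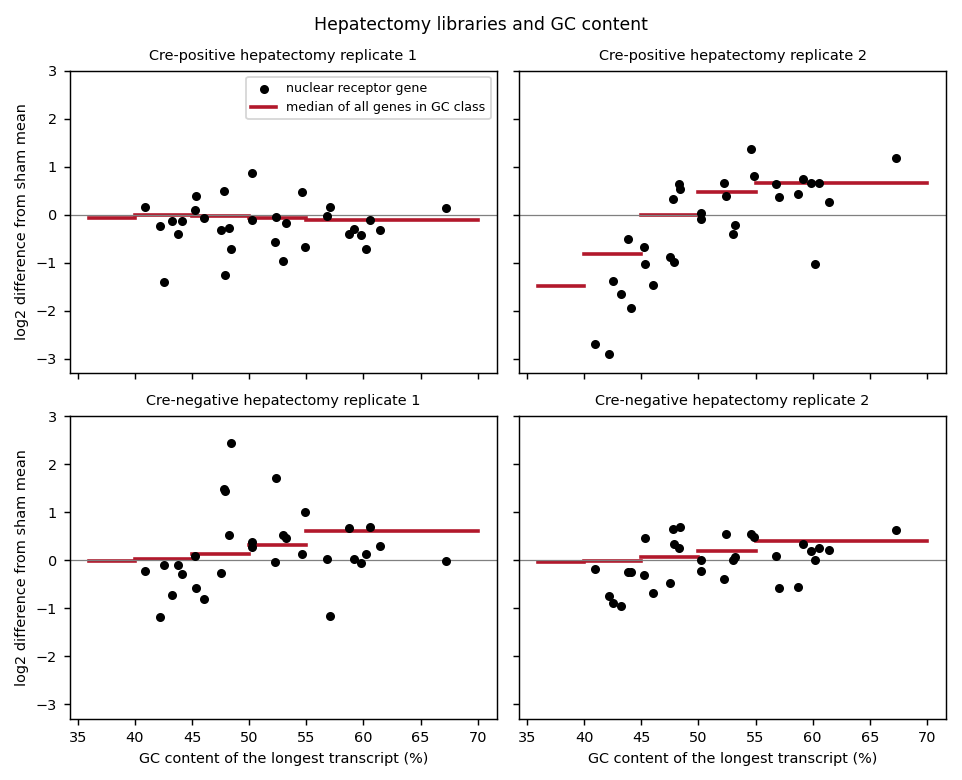
GC content of the longest annotated transcript (x axis, %) against the log2 difference from the mean of the 4 sham libraries (y axis), 1 panel per hepatectomy library. Points are the 31 members tested and red lines the medians of all genes in 5 GC classes, with the outer classes drawn to 36% and 70%. In Cre-positive hepatectomy replicate 2 the medians run from -1.48 to 0.66.

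Promoter sequences are shown for Rxra and Thrb, because the isoforms of these genes split differently between groups and each gene has more than 1 annotated start. The classic half-site to which nuclear receptors bind is AGGTCA. The windows are from RefSeq (GRCm38.p6, 250 bases before to 50 after an annotated start), 5′ to 3′ on the plus strand, with AGGTCA or its reverse complement TGACCT in capitals. The expression files use an older build, and which window gives which isoform was not determined.
Rxra chr2:27676951-27677250: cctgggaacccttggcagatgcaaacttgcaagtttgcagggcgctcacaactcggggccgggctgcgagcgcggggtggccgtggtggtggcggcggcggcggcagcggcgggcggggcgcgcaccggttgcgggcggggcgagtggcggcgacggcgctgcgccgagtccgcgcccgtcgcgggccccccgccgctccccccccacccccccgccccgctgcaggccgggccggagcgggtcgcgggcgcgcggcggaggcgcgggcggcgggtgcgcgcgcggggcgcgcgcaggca
Rxra chr2:27709042-27709341: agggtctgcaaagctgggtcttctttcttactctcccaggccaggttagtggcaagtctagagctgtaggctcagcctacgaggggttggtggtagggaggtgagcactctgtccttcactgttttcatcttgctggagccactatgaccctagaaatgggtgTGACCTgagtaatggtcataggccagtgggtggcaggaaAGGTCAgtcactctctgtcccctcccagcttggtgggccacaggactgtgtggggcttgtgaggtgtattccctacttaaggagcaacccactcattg
Thrb chr14:17660710-17661009: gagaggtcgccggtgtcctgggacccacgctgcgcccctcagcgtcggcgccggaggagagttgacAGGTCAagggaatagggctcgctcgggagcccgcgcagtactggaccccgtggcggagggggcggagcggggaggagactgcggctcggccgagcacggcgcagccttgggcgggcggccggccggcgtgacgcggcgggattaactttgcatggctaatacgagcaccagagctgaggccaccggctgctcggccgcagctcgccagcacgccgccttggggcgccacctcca
Thrb chr14:17981394-17981693: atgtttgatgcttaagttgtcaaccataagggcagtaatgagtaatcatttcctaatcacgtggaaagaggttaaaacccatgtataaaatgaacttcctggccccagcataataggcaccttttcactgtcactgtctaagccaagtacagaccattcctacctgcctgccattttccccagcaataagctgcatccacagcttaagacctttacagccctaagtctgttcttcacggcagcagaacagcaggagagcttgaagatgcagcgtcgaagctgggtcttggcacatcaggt
The second Rxra window holds 2 matches and the first Thrb window 1, and the other windows printed hold 0. Of the members, 30 had windows, 49 in all, and 9 of these 49 held the motif, or 18.4%. Over all 32851 promoter windows of 300 bases the share was 16.3%. Thra, Hnf4g and Nr3c1 had no window. A match describes letters only and was not measured as binding.

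Rxra, the retinoid X receptor alpha and common partner of many receptors in hepatocytes, was at a signal of 2075 and 2379 in Cre-positive and 826 and 1227 in Cre-negative hepatectomy livers, against 1816 and 1756 in Cre-positive and 1887 and 1938 in Cre-negative sham livers. Both Cre-negative hepatectomy libraries lay below the other 6, and both Cre-positive ones above all sham libraries. Cre-positive against Cre-negative hepatectomy livers gave a log2 fold change of 1.14 (95% interval 0.55 to 1.73, adjusted p = 0.13), the smallest unadjusted p of any member in that comparison (0.00245). Within Cre-positive livers hepatectomy against sham gave 0.32 (95% interval -0.28 to 0.91, adjusted p = 0.591), and within Cre-negative livers -0.93 (95% interval -1.52 to -0.33, adjusted p = 0.121). The difference of these responses was 1.24 (95% interval 0.41 to 2.07, adjusted p = 0.542). None of these values passed. After the GC correction the difference between the hepatectomy groups was 1.33 (adjusted p = 0.105). Without Cre-positive hepatectomy replicate 1 the uncorrected difference was 1.24. It then rests on replicate 2 alone, the library high for GC-rich transcripts, and Rxra is at 57.0% GC. The GC correction gave 0.024 (adjusted p = 0.982) within Cre-positive and -1.38 (adjusted p = 0.0626) within Cre-negative livers. On the corrected log2 scale Rxra was at 11.31 and 10.73 in Cre-positive and 9.28 and 10.08 in Cre-negative hepatectomy livers, against 11.01 and 10.98 in Cre-positive and 11.06 and 11.07 in Cre-negative sham livers. Cre-positive replicate 2 then lay below all sham libraries, and both Cre-negative hepatectomy libraries were still the lowest.

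Rxrb, the widely expressed beta form, was at 199 and 297 in Cre-positive and 304 and 289 in Cre-negative hepatectomy livers, against 259 and 262 in Cre-positive and 244 and 230.0 in Cre-negative sham livers. Hepatectomy and sham libraries overlapped, with an averaged log2 fold change of 0.11 (95% interval -0.31 to 0.54, adjusted p = 0.71). It became -0.36 (adjusted p = 0.166) after the GC correction. Rxrg, the gamma form, which is known mainly from muscle, brain and stellate cells, was at 26.5 and 50.1 in Cre-positive and 20.9 and 27.9 in Cre-negative hepatectomy livers, against 18.3 and 20.7 in Cre-positive and 20.1 and 16.7 in Cre-negative sham livers. All 4 hepatectomy libraries lay above all 4 sham libraries, with an averaged log2 fold change of 0.63 (95% interval -0.028 to 1.28, adjusted p = 0.224) that became 0.32 (adjusted p = 0.359) after the GC correction. On the log2 scale after that correction Cre-negative hepatectomy replicate 1, at 4.15, lay below all sham libraries, which were at 4.26 to 4.60. Uncorrected, Rxrg was the 1 tested member higher without overlap, against 11.2% of all genes tested. Lower without overlap were Thrb and Nr3c1, against 6.2% of all genes. Within Cre-positive livers 5 members were higher and 8 lower without overlap, against 23.9% and 19.5% of all genes. Within Cre-negative livers 8 were higher and 9 lower, against 39.7% and 23.3%.

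Thyroid hormone receptors activate lipogenic and oxidative genes in liver, chiefly through the beta form encoded by Thrb. Thrb was at 148 and 40.9 in Cre-positive and 132 and 136 in Cre-negative hepatectomy livers, against 167 and 153 in Cre-positive and 161 and 163 in Cre-negative sham livers. The hepatectomy libraries lay below the sham libraries, 3 of them by little and Cre-positive replicate 2 by far. The averaged log2 fold change was -0.65 (95% interval -1.53 to 0.23, adjusted p = 0.32), or -0.50 (adjusted p = 0.253) after the GC correction and -0.19 (adjusted p = 0.338) without that replicate. Thra, the alpha form, was at 51.9 and 110.4 in Cre-positive and 66.9 and 79.7 in Cre-negative hepatectomy livers, against 64.6 and 66.6 in Cre-positive and 73.00 and 76.4 in Cre-negative sham livers, with an averaged fold change of 0.087 (SE 0.27, adjusted p = 0.856) in log2 that became -0.35 (adjusted p = 0.239) after the GC correction and -0.18 (adjusted p = 0.462) without Cre-positive hepatectomy replicate 2.

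Retinoic acid receptors partner with RXR and carry the signal of vitamin A acid. Rara, the alpha receptor, was at 80.9 and 169 in Cre-positive and 102 and 126 in Cre-negative hepatectomy livers, against 84.4 and 119.5 in Cre-positive and 95.3 and 105 in Cre-negative sham livers. Its groups overlapped, and the averaged log2 fold change was 0.20 (SE 0.28, adjusted p = 0.668), or -0.22 (adjusted p = 0.497) after the GC correction. Rarb, the beta receptor and itself a target of retinoic acid, was at 25.4 and 22.7 in Cre-positive and 51.1 and 28.6 in Cre-negative hepatectomy livers, against 14.3 and 14.2 in Cre-positive and 26.2 and 18.5 in Cre-negative sham livers. In each genotype both hepatectomy libraries lay above both sham libraries. The log2 fold change was 0.71 (95% interval -0.19 to 1.61, adjusted p = 0.458) in Cre-positive and 0.77 (95% interval -0.14 to 1.67, adjusted p = 0.293) in Cre-negative livers, and 0.74 (95% interval 0.10 to 1.38, adjusted p = 0.166) averaged, where the unadjusted p was 0.0288. In both operations the Cre-positive Rarb values lay below the Cre-negative ones, with an averaged genotype log2 fold change of -0.62 (SE 0.27, adjusted p = 0.578). Rarg, the gamma receptor, lay between 21.9 and 52.8 over the 8 libraries with overlapping groups, and its averaged hepatectomy log2 fold change was 0.035 (SE 0.34, adjusted p = 0.957), or -0.38 (adjusted p = 0.356) after the GC correction.

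**Figure D3:**
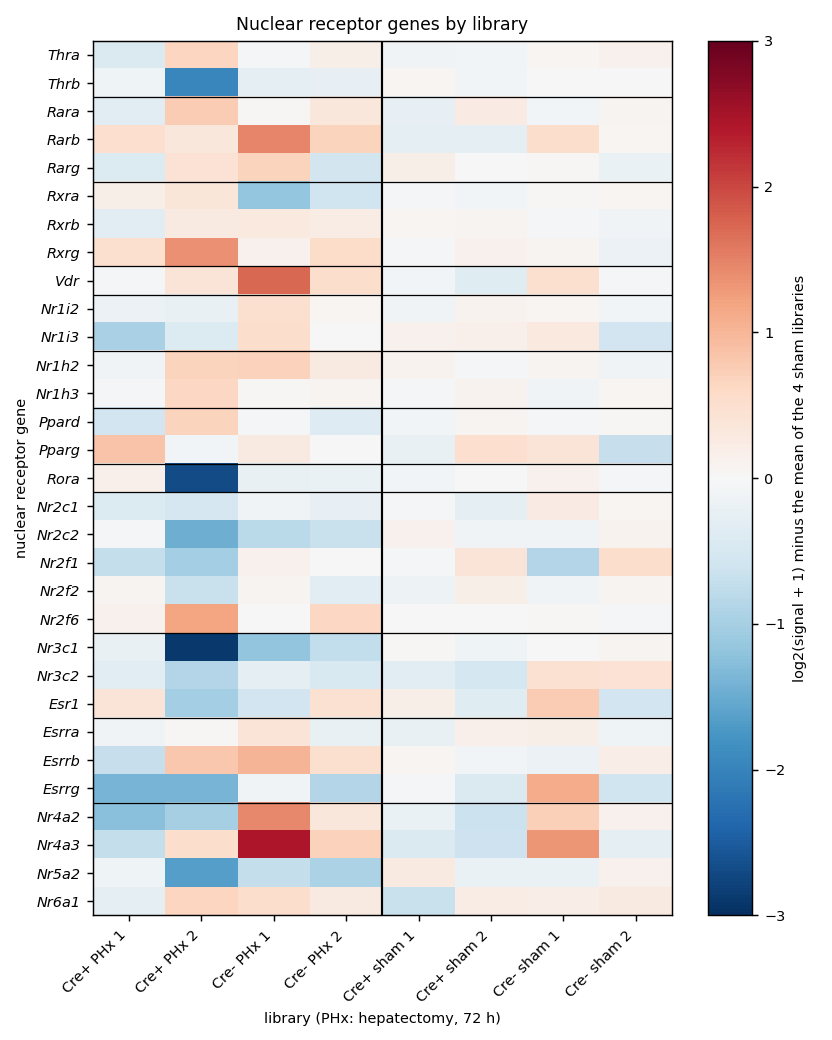
Log2(signal + 1) of the 31 members tested (rows, grouped by receptor class) in each library (columns), as the difference from the mean of the 4 sham libraries, with colours cut at -3 and 3. Rora, Nr3c1 and Thrb are lowest in Cre-positive hepatectomy replicate 2, at -2.69, -2.90 and -1.95. Rxra is low in both Cre-negative hepatectomy libraries.

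The xenobiotic sensors CAR (Nr1i3) and PXR (Nr1i2) induce cytochromes P450 and conjugating enzymes. Nr1i3 was at 493 and 733 in Cre-positive and 1387 and 967 in Cre-negative hepatectomy livers, against 1058 and 1083 in Cre-positive and 1180.4 and 653 in Cre-negative sham livers. Both Cre-positive hepatectomy values lay below both Cre-negative hepatectomy values, and Cre-positive replicate 1 was the lowest of the 8. Between those groups the log2 fold change was -0.94 (95% interval -1.79 to -0.10, adjusted p = 0.241), with an unadjusted p of 0.0331, and -0.88 (adjusted p = 0.165) after the GC correction. The difference of the hepatectomy responses was -1.23 (95% interval -2.43 to -0.035, adjusted p = 0.605). One Cre-negative sham library, at 653, lay between the Cre-positive hepatectomy libraries. Nr1i2 was at 617 and 594 in Cre-positive and 960.3 and 725 in Cre-negative hepatectomy livers, against 648 and 749 in Cre-positive and 721 and 657 in Cre-negative sham livers. After hepatectomy the Cre-positive values lay below both sham values of their genotype, and the Cre-negative values above theirs. The difference of these responses was -0.48 (95% interval -1.25 to 0.29, adjusted p = 0.718). Cre-positive against Cre-negative hepatectomy livers gave a log2 fold change of -0.46 (95% interval -1.01 to 0.085, adjusted p = 0.33), while hepatectomy against sham averaged over genotypes gave 0.038 (95% interval -0.35 to 0.42, adjusted p = 0.899), or -0.22 (adjusted p = 0.465) after the GC correction.

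LXR alpha (Nr1h3) and LXR beta (Nr1h2) sense oxysterols and drive cholesterol efflux and lipogenesis. Nr1h3 was at 976 and 1553 in Cre-positive and 1019 and 1059 in Cre-negative hepatectomy livers, against 958 and 1075 in Cre-positive and 933 and 1051 in Cre-negative sham livers. Of these values 7 lay between 933 and 1075, and Cre-positive hepatectomy replicate 2 lay above them. Hepatectomy against sham averaged over genotypes gave 0.17 (95% interval -0.27 to 0.62, adjusted p = 0.584), or -0.20 (adjusted p = 0.397) after the GC correction. Nr1h2 was at 314 and 535 in Cre-positive and 542 and 404 in Cre-negative hepatectomy livers, against 362 and 323 in Cre-positive and 357 and 311 in Cre-negative sham livers, and 3 of the 4 hepatectomy libraries lay above the sham libraries. The averaged log2 fold change was 0.38 (95% interval -0.14 to 0.90, adjusted p = 0.328), or -0.078 (adjusted p = 0.735) after the GC correction.

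Of the fatty acid receptors, Ppard, the widely expressed delta form, lay between 32.9 and 78.1 and Pparg, the adipogenic gamma form, between 11.7 and 35.9. Their averaged hepatectomy log2 fold changes were -0.086 (SE 0.30, adjusted p = 0.874) and 0.26 (SE 0.37, adjusted p = 0.672). Vdr, the vitamin D receptor, is known to be low in hepatocytes. It was at 0.822 and 1.47 in Cre-positive and 5.20 and 1.74 in Cre-negative hepatectomy livers, against 0.779 and 0.467 in Cre-positive and 1.64 and 0.853 in Cre-negative sham livers, so that only Cre-negative hepatectomy replicate 1 stood clear of the rest. Rora, an orphan receptor of the clock and of lipid metabolism, was at 196 and 26.4 in Cre-positive and 149 and 153 in Cre-negative hepatectomy livers, against 166 and 174 in Cre-positive and 193 and 171 in Cre-negative sham livers. The 26.4 of Cre-positive hepatectomy replicate 2 stands alone, as replicate 1 of that group was the highest of the 8 libraries. Averaged over genotypes Rora gave -0.74 (SE 0.55, adjusted p = 0.427). After the GC correction it was -0.44 (adjusted p = 0.427), and without replicate 2 it was -0.028 (adjusted p = 0.901).

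Steroid receptors included the gene with the lowest averaged estimate. Nr3c1, the glucocorticoid receptor, was at 237 and 36.5 in Cre-positive and 121 and 167 in Cre-negative hepatectomy livers, against 287 and 256 in Cre-positive and 279 and 294 in Cre-negative sham livers. Every hepatectomy library lay below every sham library, Cre-positive replicate 1 by the least and replicate 2 by the most. Over both genotypes the log2 fold change averaged -1.27 (95% interval -2.50 to -0.031, adjusted p = 0.202), with an unadjusted p of 0.0458. It was -1.53 (95% interval -3.27 to 0.22, adjusted p = 0.422) in Cre-positive and -1.004 (95% interval -2.75 to 0.74, adjusted p = 0.458) in Cre-negative livers. The averaged value was -1.02 (adjusted p = 0.119) after the GC correction and -0.60 (adjusted p = 0.0893) without replicate 2. The Cre-negative comparison uses the Cre-positive hepatectomy libraries only for the shared spread. Its Nr3c1 estimate stayed at -1.004 when either of them was left out. Nr3c1 passed there only in these settings, where 1 library stands for that group and far more of all genes passed as well. With only the Cre-negative libraries fitted, 0 members passed.

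Nr3c2, the mineralocorticoid receptor, showed its gap between the sham groups. It was at 30.3 and 20.3 in Cre-positive and 31.5 and 27.3 in Cre-negative hepatectomy livers, against 29.96 and 26.02 in Cre-positive and 52.4 and 51.5 in Cre-negative sham livers. The Cre-negative sham pair lay above the other 6 libraries, which lay between 20.3 and 31.5. Cre-positive against Cre-negative sham livers gave -0.87 (95% interval -1.63 to -0.12, adjusted p = 1), the 1 member at an unadjusted p under 0.05 in that comparison (0.0288). In Cre-negative livers hepatectomy against sham gave -0.80 (95% interval -1.56 to -0.049, adjusted p = 0.216). Esr1, the estrogen receptor alpha, varied within every group, at 98.5 and 36.4 in Cre-positive and 50.1 and 103 in Cre-negative hepatectomy livers, against 84.5 and 57.97 in Cre-positive and 127 and 50.3 in Cre-negative sham livers. Its averaged hepatectomy interval was correspondingly wide, -0.19 (95% interval -1.25 to 0.88, adjusted p = 0.817). Pgr, the progesterone receptor, was listed at 0 in 4 libraries and reached 1.89 in Cre-negative hepatectomy replicate 1, with at most 0.267 elsewhere. It was not tested.

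The estrogen-related receptors control mitochondrial energy genes with the coactivator PGC-1. Esrra was at 192 and 211 in Cre-positive and 269.8 and 177 in Cre-negative hepatectomy livers, against 178 and 232 in Cre-positive and 235 and 190.1 in Cre-negative sham livers, with an averaged hepatectomy log2 fold change of 0.018 (95% interval -0.47 to 0.51, adjusted p = 0.965). Esrrb lay between 0.603 and 4.19. Esrrg was at 3.28 and 3.32 in Cre-positive and 9.48 and 5.12 in Cre-negative hepatectomy livers, against 9.89 and 7.32 in Cre-positive and 23.3 and 6.46 in Cre-negative sham livers, and 1 Cre-negative sham library held the highest value. Esrrg had an averaged log2 fold change of -0.95 (95% interval -1.95 to 0.055, adjusted p = 0.229).

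LRH-1 (Nr5a2), which acts on bile acid and cholesterol genes, was at 213 and 73.2 in Cre-positive and 141 and 121 in Cre-negative hepatectomy livers, against 281 and 204 in Cre-positive and 203 and 257 in Cre-negative sham livers. In Cre-negative livers hepatectomy and sham did not overlap, and in Cre-positive livers replicate 1 lay within the sham range. Hepatectomy against sham averaged over genotypes gave -0.87 (95% interval -1.67 to -0.062, adjusted p = 0.188) with an unadjusted p of 0.0382, -0.67 (adjusted p = 0.102) after the GC correction and -0.48 (adjusted p = 0.176) without Cre-positive hepatectomy replicate 2. Nr2c2, the testicular receptor 4, had the same kind of pattern at 88.8 and 33.02 in Cre-positive and 52.5 and 57.9 in Cre-negative hepatectomy livers, against 102 and 86.6 in Cre-positive and 86.04 and 99.7 in Cre-negative sham livers. Its averaged log2 fold change was -0.76 (95% interval -1.51 to -0.012, adjusted p = 0.204) with an unadjusted p of 0.0473, -0.72 (adjusted p = 0.133) after the GC correction and -0.41 (adjusted p = 0.164) without that replicate. Nr2c1, the testicular receptor 2, was at 87.9 and 81.6 in Cre-positive and 109 and 98.9 in Cre-negative hepatectomy livers, against 115 and 96.04 in Cre-positive and 138 and 123 in Cre-negative sham livers, with -0.32 (95% interval -0.73 to 0.096, adjusted p = 0.306).

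Among the COUP-TF genes, Nr2f6 (EAR2) was at 271 and 559 in Cre-positive and 245 and 382 in Cre-negative hepatectomy livers, against 248 and 245 in Cre-positive and 251 and 242 in Cre-negative sham livers. The sham libraries lay within a narrow range, and 3 of the 4 hepatectomy libraries stood above it. Averaged over genotypes the log2 fold change was 0.48 (95% interval -0.15 to 1.12, adjusted p = 0.309), or -0.089 (adjusted p = 0.802) after the GC correction. Nr2f2 (COUP-TFII), known from venous endothelium and stellate cells, lay between 17.6 and 32.4 with overlapping groups. Nr2f1 (COUP-TFI) was at or below 3.47 in all 8 libraries. Hnf4g, the paralog of HNF4 alpha, reached 1.49 at most, was listed at 0 in Cre-negative hepatectomy replicate 1 and was not tested. Nr6a1, the germ cell nuclear factor, lay between 12.6 and 32.8.

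The NR4A genes are induced within minutes by many stimuli. Nr4a2 (NURR1) was at 0.232 and 0.483 in Cre-positive and 7.03 and 2.73 in Cre-negative hepatectomy livers, against 1.57 and 0.885 in Cre-positive and 3.79 and 2.22 in Cre-negative sham livers. Its Cre-positive values lay below its Cre-negative values in each operation. Cre-positive against Cre-negative gave -2.02 (95% interval -3.22 to -0.81, adjusted p = 0.142) after hepatectomy with an unadjusted p of 0.00531, and -1.43 (95% interval -2.28 to -0.57, adjusted p = 0.47) averaged over operations. Nr4a3 (NOR1) was at 0.410 and 2.37 in Cre-positive and 11.5 and 2.73 in Cre-negative hepatectomy livers, against 0.716 and 0.521 in Cre-positive and 4.82 and 0.912 in Cre-negative sham livers, with -1.35 (95% interval -2.67 to -0.022, adjusted p = 0.578) averaged over operations. At these low levels Cre-negative replicate 1 of each operation carried the highest values of both genes.

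**Figure D4:**
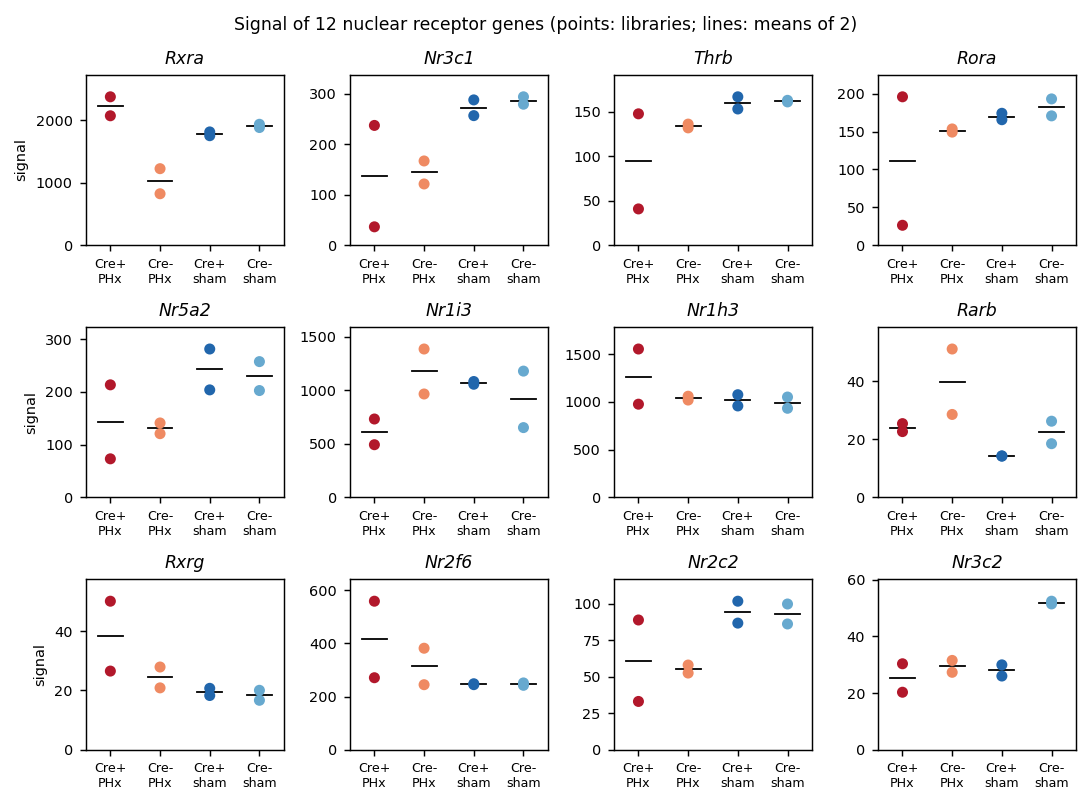
Signal (y axis, linear, from 0) of 12 members in the 4 groups, with a point for each library and a line for the mean of 2. Rxra is lowest in both Cre-negative hepatectomy libraries (826 and 1227), while Nr3c1, Thrb, Rora and Nr5a2 have their lowest value in Cre-positive hepatectomy replicate 2.

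Genotype was compared within each operation and averaged. In sham livers 0 of 31 members passed (1 at an unadjusted p under 0.05), with 0.00608% of all genes passing and 0.888% at an unadjusted p under 0.05. In hepatectomy livers 0 passed (3 at an unadjusted p under 0.05: Rxra, Nr4a2 and Nr1i3), against 0.0182% and 18.3%. Averaged over operations 0 passed (4 at an unadjusted p under 0.05: Rxra, Nr4a2, Nr4a3 and Nr3c2), against 0.0122% and 8.53%. For the difference of the hepatectomy response 0 passed (2 at an unadjusted p under 0.05: Rxra and Nr1i3), against 0.0122% and 8.09%. The median log2 fold change of Cre-positive over Cre-negative hepatectomy livers was -0.23 over the members and -0.23 over all genes. It was -0.022 and 0.010 after the GC correction, 0.017 and 0.029 with quantile normalization and -0.072 and -0.081 with median-of-ratios scaling, in the same order. After hepatectomy, 1 member (Rxra) was higher and 9 were lower in Cre-positive livers without overlap, against 14.2% and 26.3% of all genes. In sham livers 1 member (Rxrb) was higher and 8 were lower, against 12.1% and 19.4%. Without Cre-positive hepatectomy replicate 1, 4 members passed in hepatectomy livers (Rxra higher, and Nr3c1, Rora and Thrb lower), beside 13.0% of all genes. The last 3 genes were also lower in that setting averaged over operations and for the difference of responses. Far more of all genes passed in these 2 comparisons as well, with replicate 2 alone standing for the Cre-positive hepatectomy group.

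The isoform table splits the signal of the 33 genes over 203 numbered isoforms, 118 of which had a mean of at least 1 and were tested in the same way, adjusted over all 47375 isoforms tested. This test was chosen after the values were seen. The files do not say what each number encodes. In hepatectomy livers 6 of the 118 member isoforms differed between Cre-positive and Cre-negative, against 5.17% of all isoforms tested, so the members' share lies near the background. They were Rxra-002, Rxra-004, Rxra-005 and Rxra-201, all higher in Cre-positive livers, with Nr1h2-001 higher and Rara-201 lower. The same 6 changed with hepatectomy in Cre-negative livers, in the opposite direction, against a background of 4.5%. Both comparisons use the Cre-negative hepatectomy libraries. With hepatectomy in Cre-positive livers 1 member isoform passed (Nr1h2-002, higher), against 0.0106% of all isoforms. Averaged over genotypes 3 passed (Nr1h2-002 higher, Rxra-004 and Rxra-201 lower), against 1.72%. For genotype 0 passed in sham, against a background of 0%. At an unadjusted p under 0.05 by limma there were 9 of the 118 member isoforms, beside 949 of all 47375. Averaged over operations 4 passed (Rxra-002, Rxra-004 and Rxra-201 higher in Cre-positive livers, Nr1h2-002 lower), against 0.846%, and the same 4 passed for the difference of responses, all with a positive sign, against 0.868%. Leaving out any 1 sham library left 0 member isoforms past the threshold in the comparisons averaged over genotypes or operations, for the difference of responses and in Cre-positive livers.

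The Rxra gap lay in its minor isoforms as well as in its main one. Rxra-201 was at 219 and 323 in Cre-positive and 0.487 and 0.223 in Cre-negative hepatectomy livers, against 94.4 and 97.6 in Cre-positive and 173 and 148 in Cre-negative sham livers. In both Cre-negative hepatectomy libraries it lay under 1, where every other library had at least 94.4. Cre-positive against Cre-negative hepatectomy livers gave a log2 fold change of 7.63 (SE 0.37, adjusted p = 7.18e-04). Rxra-004 was at 110.0 and 167 in Cre-positive and 3.45 and 7.61 in Cre-negative hepatectomy livers, against 92.9 and 104 in Cre-positive and 108 and 111 in Cre-negative sham livers and gave 4.46 (SE 0.44, adjusted p = 0.00496) in the same comparison. Rxra-002 was at 68.9 and 136 in Cre-positive and 0.308 and 0.0514 in Cre-negative hepatectomy livers, against 17.6 and 23.3 in Cre-positive and 59.7 and 66.6 in Cre-negative sham livers and gave 6.38 (SE 0.48, adjusted p = 0.00236). With each library left out in turn, these 3 isoforms passed every time between the hepatectomy groups. Together the 5 isoforms other than Rxra-001 held 19.8% and 27.2% of the Rxra signal in Cre-positive hepatectomy and 0.564% and 0.647% in Cre-negative hepatectomy livers. In sham they held 11.95% and 13.5% in Cre-positive and 18.6% and 17.9% in Cre-negative livers. Rxra-001 itself was at 1664 and 1731 in Cre-positive and 821 and 1219 in Cre-negative hepatectomy livers, against 1599 and 1519 in Cre-positive and 1535 and 1592 in Cre-negative sham livers, with a log2 fold change of 0.76 (SE 0.27, adjusted p = 0.143) between the hepatectomy groups.

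**Figure D5:**
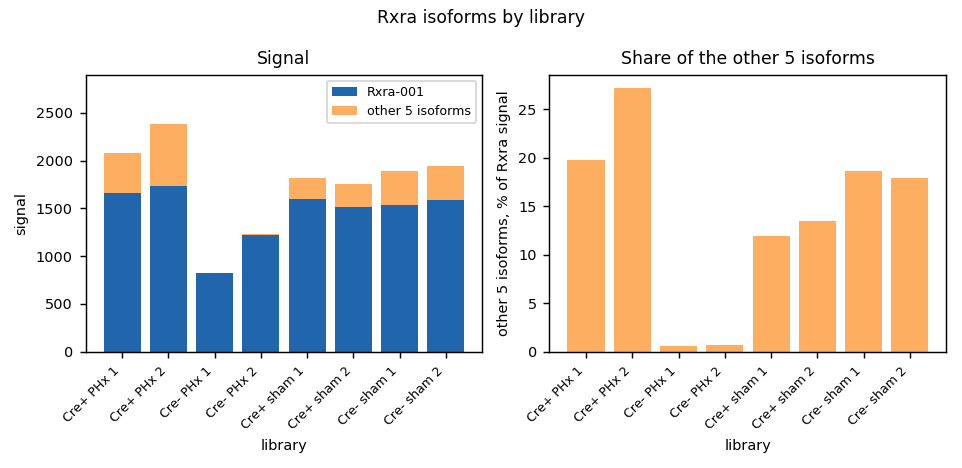
Left, signal of Rxra-001 (blue) and of the other 5 Rxra isoforms (orange) stacked by library. Right, share of the other 5 isoforms in the Rxra signal (%). The share is 0.564% and 0.647% in Cre-negative hepatectomy replicates 1 and 2, and between 11.95% and 27.2% in the other 6.

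This split was not particular to Rxra. Over all 96792 isoforms, 353 were under 1 in both Cre-negative hepatectomy libraries and at 10 or more in each of the other 6, and Rxra-002 and Rxra-201 are among them. The same count was 12 for the Cre-positive hepatectomy pair, 5 for the Cre-positive sham pair and 3 for the Cre-negative sham pair. In reverse, 68 isoforms reached 10 or more in both Cre-negative hepatectomy libraries and were under 1 elsewhere, Rara-201 among them, against 9, 5 and 2 for the other pairs. The part of this library-wide pattern in the Rxra values was not tested. The order of the Thrb isoforms by signal differed between libraries too. Thrb-202 was at 20.1 and 0.779 in Cre-positive and 103 and 103 in Cre-negative hepatectomy livers, against 37.2 and 42.98 in Cre-positive and 42.8 and 47.04 in Cre-negative sham livers. Thrb-201 was at 92.5 and 25.01 in Cre-positive and 22.9 and 26.9 in Cre-negative hepatectomy livers, against 113 and 97.1 in Cre-positive and 93.5 and 105 in Cre-negative sham livers. Thrb-202 was thus the larger isoform in both Cre-negative hepatectomy libraries and the smaller one in the other 6. Neither Thrb isoform passed between the hepatectomy groups (adjusted p = 0.0727 for Thrb-202 and 0.361 for Thrb-201). Nr1h2-002 split by genotype in sham, at 57.9 and 45.1 in Cre-positive and 116 and 169 in Cre-negative hepatectomy livers, against 0.154 and 0.108 in Cre-positive and 64.3 and 54.9 in Cre-negative sham livers. It missed the threshold there, with -5.74 (SE 0.41, adjusted p = 0.0677). It passed with a pseudocount of 0.1 (adjusted p = 0.0479) and with no filter on low values (adjusted p = 0.0386), and in the other settings the adjusted p lay between 0.0568 and 0.897. Nr1h2 as a gene overlapped between those sham groups. Nr1i3 was spread over 6 isoforms of at least 10% each, and all 6 were lower in both Cre-positive than in both Cre-negative hepatectomy libraries. They are parts of 1 gene whose total was itself lower without overlap there, as were 26.3% of all genes. The share over all isoforms was not computed. None of the 6 passed.

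Genes around the receptors were read from lists chosen for their textbook link to them, in the averaged hepatectomy comparison, where 4.49% of all genes passed with a median of 0.12. Of 15 glucocorticoid handling and receptor target genes 2 fell and 0 rose, with a median of -0.56. Hsd11b1, which regenerates active glucocorticoid in the liver, was at 2848 and 2587 in Cre-positive and 2175 and 2875 in Cre-negative hepatectomy livers, against 5613 and 5281 in Cre-positive and 6457 and 5717 in Cre-negative sham livers. It fell by 1.14 in log2 units (SE 0.17, adjusted p = 0.0142). Tat, the tyrosine aminotransferase induced by glucocorticoids, fell by 1.08 (adjusted p = 0.0356). Of 11 tested genes of thyroid hormone handling and response 2 fell and 0 rose (median -0.53). Slc16a10, a transporter of aromatic amino acids and thyroid hormone, was at 206 and 173 in Cre-positive and 227 and 210.3 in Cre-negative hepatectomy livers, against 481 and 491 in Cre-positive and 517 and 625 in Cre-negative sham livers. It fell by 1.37 (SE 0.16, adjusted p = 0.00683). Thrsp, a lipogenic gene induced by thyroid hormone, fell by 1.45 (adjusted p = 0.0302).

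Of 17 CAR and PXR targets 4 rose and 2 fell (median -0.43). Gsta1 and Gstm3, glutathione transferases, rose by 2.98 (adjusted p = 0.0166) and 1.35 (adjusted p = 0.0229), and Cyp2c55 rose by 2.15 (adjusted p = 0.0121). Cyp2c50, another P450 of that family, fell by 1.36 (adjusted p = 0.0287). Reads may be shared between near-identical members of the Cyp2c and glutathione transferase families, which makes these values less certain.

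Of 12 LXR targets 1 fell and 0 rose (median -0.50), namely Mylip, the ligase that degrades the LDL receptor, by 1.38 (adjusted p = 0.0238). Of 11 targets of PPAR gamma and delta 1 rose and 0 fell (median 0.50), namely Angptl4, an inhibitor of lipoprotein lipase, by 0.73 (adjusted p = 0.0423). Of the 8 LRH-1 targets, the 7 ERR targets and the 5 tested genes of vitamin D metabolism 0 passed by limma (2, 0 and 3 at an unadjusted p under 0.05), with medians of -0.47, -0.15 and -0.078. Of 19 coactivators and corepressors 0 passed (4 at an unadjusted p under 0.05), and 15 had a negative fold change (median -0.34). Of all genes tested 23.8% had an unadjusted p under 0.05 and 57.7% a positive fold change. Of 12 tested genes among the other 16 nuclear receptors 1 rose and 0 fell (median -0.35). It was Nr5a1 (adjusted p = 0.0371), the steroidogenic factor 1, at 0.614 and 2.49 in Cre-positive and 7.66 and 4.42 in Cre-negative hepatectomy livers, against 0 and 0 in Cre-positive and 0 and 0.368 in Cre-negative sham livers, a low level in every library and listed at 0 in 3 of the 4 sham libraries. With each library left out in turn, each of the 11 genes that passed and are named here lost its call at least 3 times, with adjusted p up to 0.196, and all 11 lost it when either Cre-positive sham library was left out.

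Whole liver holds several cell types. The part of the following markers in the receptor values was not tested. Kupffer cell markers (7 genes) summed to 3938 to 4080.0 in Cre-positive hepatectomy, 1647 to 2237 in Cre-negative hepatectomy and 1451 to 2387 in the 4 sham libraries, so that both Cre-positive hepatectomy libraries lay above the other 6. Stellate cell markers (10 genes) summed to 1341 to 2139.7 in Cre-positive hepatectomy, 1830.3 to 1985 in Cre-negative hepatectomy and 2219 to 3098 in the 4 sham libraries, and none of them passed in the averaged comparison (4 at an unadjusted p under 0.05 by limma). Every hepatectomy library lay below every sham library in this sum, which does not speak for each gene in it. Pdgfrb, 1 of the 10, lay within or above its sham range in every hepatectomy library. Sinusoidal endothelial markers (8 genes) summed to 2729 to 3665 in Cre-positive hepatectomy, 1635 to 3394 in Cre-negative hepatectomy and 3572 to 4656 in the 4 sham libraries. All 8 had a negative averaged fold change and 2 fell (Oit3 and Kdr), each of which lost its call in at least 5 of the 8 fits with 1 library left out. Cholangiocyte markers (7 genes) summed to 605 to 1801 in Cre-positive hepatectomy, 578 to 803 in Cre-negative hepatectomy and 460.2 to 560.0 in the 4 sham libraries, the highest in Cre-positive hepatectomy replicate 1. Erythroid markers (5 genes) summed to 6722 to 34154 in Cre-positive hepatectomy, 11889 to 18144 in Cre-negative hepatectomy and 3548 to 6164 in the 4 sham libraries. The highest sum was in Cre-positive hepatectomy replicate 2, the library that was low for AT-rich transcripts. Of these 5, 1 rose in the averaged comparison (Slc4a1) and lost its call in 6 of the 8 fits with 1 library left out. Dividing cell markers (5 genes) summed to 1078 to 2244 in Cre-positive hepatectomy, 941 to 2162 in Cre-negative hepatectomy and 50.99 to 82.97 in the 4 sham libraries, and all 5 rose in the averaged comparison. Hepatocyte markers (9 genes) summed to 316068 to 525178 in Cre-positive hepatectomy, 325795 to 436629.8 in Cre-negative hepatectomy and 481729.7 to 558750.1 in the 4 sham libraries. Of these 9, 1 fell and 0 rose in the averaged comparison (3 at an unadjusted p under 0.05), with a median of -0.35. It was Cyp2e1, an ethanol-inducible P450, which fell by 1.60 (adjusted p = 0.0108) and lost its call in 3 of the 8 fits with 1 library left out. Hepatocyte markers are abundant in every library, but Alb, the albumin gene, was listed at 0 in 7 of the 8, which can be a failed estimate. Lymphocyte markers (7 genes) summed to at most 37.9 in any library, adipocyte markers (5 genes) to at most 59.2 and neutrophil markers (5 genes) to at most 689. Of the 4 pancreatic acinar markers, Pnlip was listed at 0 in all 8 libraries and Cela1, which other tissues also express, held nearly all of the sum.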

How the data were processed

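The values are the authors' deposited normalized signal per gene (34465 genes) and per isoform (96792) in 8 libraries. The submitters' processing notes name TopHat and Cufflinks, without versions, with mm9 and NCBIM37 as genome builds. How it was normalized, and if per length, is not given in these sources, so levels are compared between libraries and not between genes. Per the labels, total RNA of whole liver was extracted with Trizol and sequenced from TruSeq libraries. Read depth is unknown, and no counting interval is given. No column belonged to another sample.

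The 16443 genes averaging 1 or more were tested on log2(signal + 1) with limma 3.58.1 (R 4.3.3), on a scale that understates the change of low genes. All 8 libraries entered 1 model with a mean per group and a shared spread moderated along an intensity trend. The code was tested on simulated data. Every member is accounted for. Library values are given where a member passed, where 4 hepatectomy and 4 sham libraries did not overlap, or for the 15 highest mean levels. Rarb, Nr2c2, Nr3c2, Nr4a2, Nr4a3, Thra, Vdr and Esrrg were added after their values were seen. Of each other list, up to 4 genes past the threshold, or otherwise up to 2 of the highest level, could be named. Members and lists were chosen with earlier results of these data known. The list of retinoid handling genes is not reported here. GC content came from the longest GENCODE M21 transcript (GRCm38) of the same or an older symbol, for 96.4% of the genes tested, and the correction used these genes only. Alternatives were another pseudocount (0.1), filter (none, or a mean of 5) and scaling (median-of-ratios, quantile), the GC correction, only the groups compared, and each library left out. Where a library is left out, its partner alone stands for the group and is assumed to vary like the other groups. Replicate numbers follow accession order and pair nothing. Isoforms were tested in the same way, a test added after their values were seen.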

Additional observations from a re-analysis of the deposited data

How the results depend on the processing

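The count of members past the threshold was 0 in every comparison and stayed 0 under the other pseudocount, filters, scalings, the GC correction and the fits of only the groups compared. With 1 library left out it ranged from 0 to 7 for hepatectomy in Cre-positive livers, 0 to 1 in Cre-negative livers and 0 to 9 averaged. For genotype it ranged from 0 to 0 in sham, 0 to 4 in hepatectomy and 0 to 3 averaged, and from 0 to 3 for the difference of responses. Counts over all genes moved too: 738 for averaged hepatectomy became 1102 with the GC correction (684 higher and 418 lower, against 599 and 139), 405 with no filter and 134 to 5369 with 1 library left out. The 183 in Cre-negative livers became 494 with the GC correction (321 higher and 173 lower, against 166 and 17), 103 with no filter, 62 and 79 with the scalings, 63 with only these groups and 0 to 1657 with 1 library left out. The 155 in Cre-positive livers became 306, 7, 99 (quantile), 0 and 1 to 3459 in the same order. The genotype counts of 1, 3 and 2 and the 2 for the difference ranged from 0 to 19, 0 to 2142, 0 to 913 and 0 to 732 with 1 library left out, and were 0, 22, 7 and 1 with no filter. With the GC correction the genotype count was 0 in sham and 1 averaged over operations, and that for the difference was 0. In hepatectomy livers it was 0 with only the groups compared, and for the difference 1 with a pseudocount of 0.1. Each highest member count above 0, that in Cre-positive livers included, was reached without Cre-positive hepatectomy replicate 1. Far more of all genes passed in that setting as well, so these member counts are to be read against that background.

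Averaged hepatectomy log2 fold changes of 14 of the 31 members, none past the threshold with all 8 libraries, changed sign in some settings, and the cause was not tested. With the GC correction they were -0.35 for Thra, -0.38 for Rarg, -0.22 for Rara, -0.36 for Rxrb, -0.22 for Nr1i2, -0.078 for Nr1h2, -0.20 for Nr1h3, -0.089 for Nr2f6 and -0.13 for Esrra. With median-of-ratios scaling they were -0.070 for Thra, -0.12 for Rarg, -0.044 for Rxrb, -0.12 for Nr1i2 and -0.14 for Esrra. With quantile normalization they were -0.027 for Thra, -0.15 for Rarg, -0.027 for Pparg and -0.0055 for Esrrb. With 1 library left out they ranged from -0.18 to 0.36 for Thra, -0.27 to 0.34 for Rarg, -0.39 to 0.22 for Ppard, -0.0054 to 0.53 for Pparg, -0.39 to 0.16 for Nr4a2, -0.063 to 0.46 for Rara, -0.029 to 0.26 for Rxrb, -0.064 to 0.14 for Nr1i2, -0.54 to 0.17 for Esr1 and -0.13 to 0.17 for Esrra.

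Member isoforms past the threshold numbered 6 between the hepatectomy groups and 6 for hepatectomy in Cre-negative livers. Both counts moved with 1 library left out, as did the counts over all isoforms. Both were highest without Cre-negative hepatectomy replicate 2, where far more of all isoforms passed as well. In sham livers 0 became 1 lower in Cre-positive livers (Nr1h2-002) with a pseudocount of 0.1 or no filter. Between the hepatectomy groups Rxra-201, Rxra-002 and Rxra-004 passed in all 13 of their other settings, while Rxra-005 and Nr1h2-001 missed the threshold in several. No paired analysis was possible because the labels number the samples through the series and share no replicate number between groups. Medians over all genes moved with the scaling, from 0.12 to -0.029 (median-of-ratios) or -0.030 (quantile) for averaged hepatectomy. With unknown depth and 2 libraries per group, the spread between libraries limits every statement above.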
